A study of Homo sapiens with 12 samples.

Results

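Among the ac4C peaks called in a human bile duct cancer line, those of intermediate width, over 1 kb and up to 10 kb on the genome, are described here. A peak was taken when its end minus its start was over 1000 bp and up to 10000 bp and its deposited score was 10 or more. In the knockdown list 5714 of 28047 peaks met both conditions, 20.4% (95% Wilson interval 19.9 to 20.8), against 5534 of 34365 in the control list, 16.1% (15.7 to 16.5). Together these are 11248 of 62412 peaks. The peaks were chosen by their width and score, so both are given only as a description.

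The study used RBE, an established line of human intrahepatic cholangiocarcinoma, a cancer of the bile ducts inside the liver. The knockdown cells are labelled sh-NAT10, for a short hairpin RNA against NAT10, and the control cells sh-NC. Each arm had 3 immunoprecipitated and 3 input libraries, 12 in 4 groups: sh-NAT10 immunoprecipitate, sh-NAT10 input, sh-NC immunoprecipitate and sh-NC input. RNA was cut to fragments of 100 to 200 bp, and a part of it was pulled down with an antibody against ac4C.

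The treatment text is the same for all samples and describes only the sh-NAT10 lentivirus, given at a multiplicity of infection of 20 with 10 µg/mL polybrene, after which stable lines were selected with 2 µg/mL puromycin. What the sh-NC cells received, the hairpin sequences and the origin of the replicates in separate cultures are not stated there. The labels give polyA RNA as the molecule and total RNA in the extraction text. Each arm is represented by 1 peak list. The name of 1 list fits only the sh-NC titles, and the other list was taken as that of the sh-NAT10 cells. With 1 list an arm, no difference between the arms has a replicate check, and no test is given. Read depth per library is unknown here. Fewer cells, less RNA per cell and less acetylation of that RNA cannot be told apart in a peak list.

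In ac4C an acetyl group sits on the cytidine base. NAT10 is the acetyltransferase that places it on human ribosomal and transfer RNA, and many studies have mapped ac4C on messenger RNA with an antibody. Since the RNA fragments were far shorter than 1 kb, a peak over 1 kb joins signal over a stretch of the genome. The lists give no sub-blocks for any peak, so a span can run across introns and a width does not measure RNA.

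A few of these peaks begin close to where a gene begins, and some of their start windows are shown here with the peak edges. On the strand of a single protein-coding gene lay 3714 knockdown and 3608 control peaks. Their 5′ edge was 0 to 1000 bp after an annotated start for 306 knockdown and 229 control peaks. It was 0 to 49 bp after the start for 14 knockdown peaks, 0.38%, and 15 control peaks, 0.42%. Whether edges gather at starts was not tested. The genes of these 14 and 15 peaks were the same for 9, and 7 of these had identical coordinates in both lists. The following windows of the RefSeq GRCh38.p14 promoter table run 5′ to 3′ over 30 bases before and 30 bases from the start on, with capitals for bases inside the peak.
TALDO1, both lists: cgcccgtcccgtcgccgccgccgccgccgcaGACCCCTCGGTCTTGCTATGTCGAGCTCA
S100A11, both lists: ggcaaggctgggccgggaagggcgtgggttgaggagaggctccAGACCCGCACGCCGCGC
PTP4A2, both lists: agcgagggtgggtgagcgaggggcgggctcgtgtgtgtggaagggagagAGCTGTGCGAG
S100A10, knockdown list: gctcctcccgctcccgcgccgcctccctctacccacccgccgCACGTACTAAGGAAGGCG
ACLY, knockdown list: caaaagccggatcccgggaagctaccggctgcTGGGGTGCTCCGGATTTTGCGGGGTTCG
ACLY, control list: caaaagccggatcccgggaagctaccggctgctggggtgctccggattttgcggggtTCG
POLR2L, control list: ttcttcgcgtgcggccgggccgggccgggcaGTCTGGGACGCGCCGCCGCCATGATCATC

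The TALDO1 window, for transaldolase of the pentose phosphate pathway, lies at chr11:747434-747493 on the plus strand, and its 4810 bp peak began 1 bp after the start in both lists. S100A11, a calcium-binding protein, has its window at chr1:152036975-152037034 on the minus strand, and its 4286 bp peak began 13 bp after the start in both lists. PTP4A2, a protein tyrosine phosphatase, has its window at chr1:31937789-31937848 on the minus strand and an edge 19 bp after the start in both lists. The S100A10 window is at chr1:151993830-151993889 on the minus strand, and the knockdown edge lay 12 bp after the start. ACLY, the enzyme that makes cytosolic acetyl-CoA from citrate, has its window at chr17:41918922-41918981 on the minus strand. Its edge lay 2 bp after the start in the knockdown list and 27 bp after it in the control list, a gap of 25 bp. POLR2L, a subunit of the RNA polymerases, has its window at chr11:842500-842559 on the minus strand and a control edge 1 bp after the start.

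Cytidines in the first 50 bases after the start had a median of 13 over the 14 knockdown peaks and 12 over the 15 control peaks. All 22199 protein-coding start entries of the table had a median of 14, with quartiles of 11 and 18. The medians at these starts were thus no higher than that of starts in general. The 50 bases were counted from the annotated start, so those before a peak's edge lie outside the peak. The counts therefore do not describe the cytidines of the peaks. The table holds start windows only, so the bases of the other peaks are not shown.

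Widths were nearly the same in both lists. The median was 2661 bp in the knockdown list, with quartiles of 1609.25 and 4536.75 bp, and 2641.5 bp in the control list, with quartiles of 1643.25 and 4608.75 bp. Counts per 1000 bp of width fell off smoothly, with 2051 knockdown and 1976 control peaks at 1 to 2 kb and 162 knockdown and 161 control peaks at 9 to 10 kb. Neither width limit marked a break. The first 100 bp above the lower limit held 275 knockdown and 272 control peaks, beside 295 and 305 in the last 100 bp below it. At the upper limit, the last 1000 bp inside held 162 knockdown and 161 control peaks, beside 113 and 125 in the first 1000 bp outside.

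**Figure D1:**
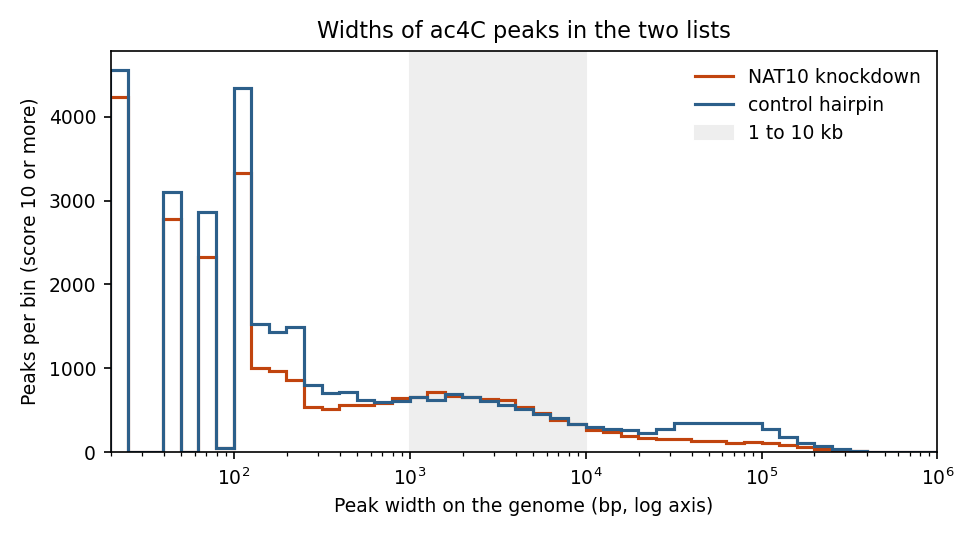
Widths of all peaks with a score of 10 or more in the knockdown list (orange) and the control list (blue), as peaks per bin against width in bp on a log axis, with 1 to 10 kb shaded. Knockdown counts per bin were 644 just below the shaded range, 716 at 1259 to 1585 bp and 343 in its last bin. Control counts were 611 just below it, 694 at 1585 to 1995 bp and 342 in its last bin. Narrow peaks number 19013 knockdown and 23455 control, and peaks over 10 kb 2076 knockdown and 3841 control.

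The score limit of 10 did lie at a break. In the width range, 299 knockdown and 275 control peaks scored under 10, of which 81 knockdown and 92 control peaks had a score of 0. Just outside the limit, the highest score was 9.84 in the knockdown list and 8.65 in the control list. Just inside it, 601 knockdown peaks and 661 control peaks scored between 10 and 11. The finite scores had a median of 14.0 in the knockdown list and 13.4 in the control list, and 21 knockdown and 23 control peaks had an infinite score. No source used here gives the scale of the score, so scores only rank peaks within a list.

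Their widths did not follow the steps seen among narrow peaks. A width that is a whole multiple of 25 bp occurred in 4.01% of knockdown and 4.14% of control peaks of 1 to 10 kb, where 1 width in 25, or 4%, is such a multiple. Among narrow peaks up to 1 kb the share was 77.8% in the knockdown list and 82.6% in the control list. Among peaks over 10 kb it was 3.85% and 3.83%.

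By chromosome, the share of all peaks that were of 1 to 10 kb was highest on 3 small chromosomes. It was 26.4% in the knockdown list and 22.0% in the control list on chromosome 21, 26.2% and 22.9% on chromosome 22, and 24.3% and 22.3% on chromosome 19. The X chromosome was low with 16.4% and 13.5%. The strands were held evenly, with 2887 knockdown and 2870 control peaks on the plus strand and 2827 and 2664 on the minus strand.

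Nearly all of these peaks lay in annotated genes. No gene was overlapped by 37 knockdown and 27 control peaks. Exactly 1 gene was overlapped by 4768 knockdown peaks, 83.4%, and 4625 control peaks, 83.6%, and that gene was protein-coding for 4623 and 4503 of them. The gene results below rest on these, counted on either strand. Another 909 knockdown and 882 control peaks overlapped 2 or more genes and are not assigned. Long noncoding genes alone held 45 knockdown and 41 control peaks. Of 1560 microRNA hairpins, 2 lay wholly inside a peak on the same strand in the knockdown list and 2 in the control list, and these were the same 2.

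The peaks were internal to their genes. Neither the gene's start nor its end was held by 99.3% (99.0 to 99.5) of knockdown peaks and 99.0% (98.7 to 99.3) of control peaks. The start was held by 16 knockdown and 17 control peaks and the end by 17 and 28. A peak covered a small part of its gene, with a median of 4.61% of the gene span (95% interval of the median 4.46 to 4.80) in the knockdown list and 4.01% (3.83 to 4.15) in the control list. At least 10% of the span was covered by 1154 knockdown and 1048 control peaks, and at least 50% by 58 and 55. Being internal was not particular to this width range. Neither boundary was held by 99.6% of narrow knockdown peaks and 99.5% of narrow control peaks. For peaks over 10 kb the shares were 95.8% in the knockdown list and 95.4% in the control list.

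The genes were long. The median span of a gene with such a peak was 49621 bp in the knockdown list and 54441.5 bp in the control list, against 24115 bp for all 20037 protein-coding genes. Genes with a narrow peak had medians of 38079 bp in the knockdown list and 42517.5 bp in the control list, and genes with a peak over 10 kb 134131 and 189786 bp. A short gene cannot hold a wide peak, so gene span is not independent of the width rule.

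Within genes the peaks leaned to the later part. Midpoints lay in the last 50% of the gene span for 66.0% (64.7 to 67.4) of knockdown peaks and 68.0% (66.6 to 69.3) of control peaks. The first 10% held 4.87% (4.28 to 5.53) of knockdown and 3.73% (3.22 to 4.32) of control peaks, and the last 10% held 13.8% (12.8 to 14.8) and 17.1% (16.0 to 18.3). Narrow peaks sat at the ends of genes more often, with 8.87% in the knockdown list and 6.98% in the control list in the first 10% and 22.7% and 30.8% in the last 10%. A peak that lies inside its gene and covers much of the span cannot have its midpoint near either end. The shares in the first and last 10% are therefore not independent of the width rule. The lean to the later part was shared with narrow peaks, where the last 50% held 67.8% of knockdown and 72.1% of control peaks. Among peaks over 10 kb the last 50% held 48.4% in the knockdown list and 51.6% in the control list. Where a gene's strand was not in the tables used, the peak's own strand set the direction.

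**Figure D2:**
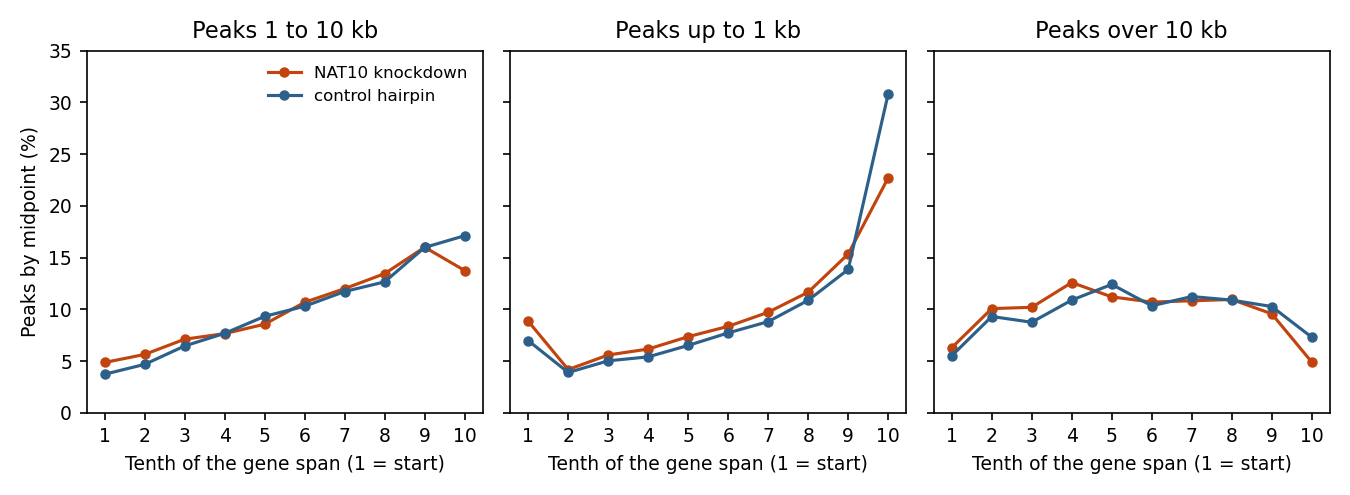
Share of peaks by midpoint (%) in 10 equal bins of the gene span, 1 being the gene's start, for the knockdown list (orange) and the control list (blue), in panels by peak class. Among peaks of 1 to 10 kb the knockdown share went up along the gene to 16.0% in the last bin but 1 and was 13.8% in the last. The control share was 16.0% in the last bin but 1 and highest in the last, at 17.1%. Narrow peaks had their highest share in the last bin in both lists.

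A gene strand was known for 3809 knockdown and 3723 control peaks, and 97.5% (97.0 to 98.0) and 96.9% (96.3 to 97.4) lay on it. The 95 knockdown and 115 control peaks on the opposite strand were more frequent at high score. In the knockdown list the opposite strand held 1.27% of peaks scoring 10 to 12, 3.80% (30 of 790) at 20 to 50 and 20.7% (6 of 29) at 100 or more. In the control list it held 0.985%, 9.27% (51 of 550) and 28.6% (6 of 21) in the same score ranges. Opposite-strand peaks also had identical coordinates in the other list more often, 50.5% (40.6 to 60.4) in the knockdown list and 41.7% (33.1 to 50.9) in the control list, against 14.9% and 15.4% of peaks on the strand of the gene. Identical coordinates were more frequent at high score among all peaks of this width, and the strands were not compared at like scores. Of the opposite-strand peaks, 58 of 95 in the knockdown list and 89 of 115 in the control list overlapped a peak of the same list on the strand of the gene. No source used here says how strand was handled upstream, so the strand of these peaks is uncertain.

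**Figure D3:**
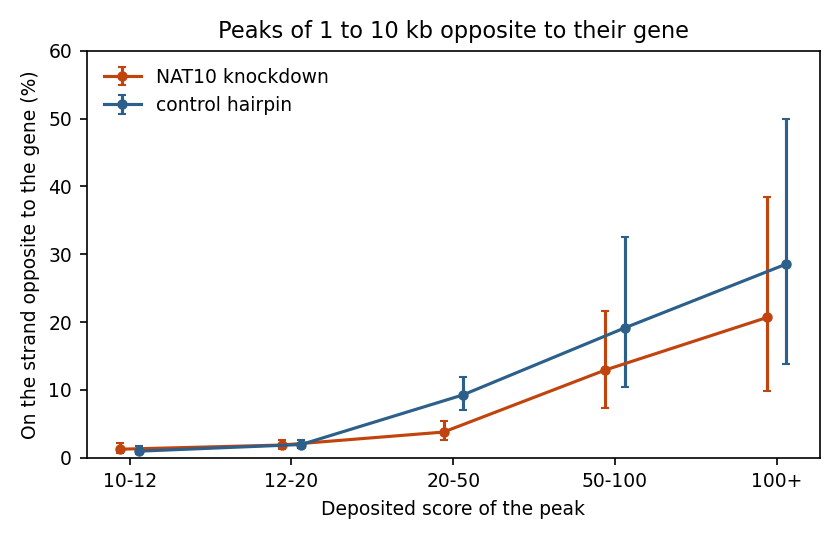
Share of peaks of 1 to 10 kb that lie on the strand opposite to their gene (%) by deposited score, for the knockdown list (orange) and the control list (blue), with 95% Wilson intervals as bars. The share is 1.27% in the knockdown list and 0.985% in the control list at scores of 10 to 12, and 20.7% and 28.6% at 100 or more, where the intervals are wide.

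The peaks with the highest scores show this mix of strands. CSNK1D is a casein kinase that acts in the circadian clock and in Wnt signalling. Among knockdown peaks in a single protein-coding gene it held the highest finite score, 271.4, at chr17:82255560-82265306, 9747 bp on the minus strand. The control list held the same interval with a score of 149.6. DYNC1H1, the heavy chain of cytoplasmic dynein, had an identical 6066 bp peak on the strand opposite to the gene, scoring 179.6 in the knockdown list and 163.4 in the control list. MLPH, which links melanosomes to myosin, had an identical 2822 bp peak on the gene's strand, scoring 182.1 in the knockdown list and 120.8 in the control list. TMEM120B had a 4603 bp knockdown peak scoring 202.3, and its control partner, 100 bp longer at 1 end, scored 13.0.

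XPC, a protein that recognises damaged DNA in nucleotide excision repair, had the highest finite control score, 272.5, for a 4560 bp peak on the gene's strand at chr3:14159823-14164382. That interval had no knockdown partner. A 6008 bp peak on the opposite strand at the same place was identical in both lists and scored 15.1 in the knockdown list and 225.8 in the control list. CALM3, a calmodulin gene, also had an identical peak on the opposite strand, scoring 108.4 in the knockdown list and 143.2 in the control list. ELOVL7, an enzyme that lengthens fatty acids, had an identical 6606 bp interval with a score of 14.9 in the knockdown list and an infinite one in the control list.

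Infinite scores in both lists at identical coordinates belonged to IL6ST, a cytokine receptor subunit shared by the interleukin-6 family, to HFM1, a helicase of meiosis, and to EIF4G2, a translation factor, on the strand opposite to it. NOTCH2 and its near-identical copy NOTCH2NLA also did so, at 7925 bp and 7960 bp, and reads from such copies can be split or shared in the mapping. The EIF4G2 peak, 9177 bp wide, ran past the gene's end, covered 37.1% of the gene span and had its midpoint outside the gene.

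Only a few peaks filled a gene, 4 in the knockdown list and 8 in the control list at 80% or more of the span. The S100A11 peak shown above covered 95.3% of its gene in both lists on the gene's strand. DPM2, RITA1 and ZNF213 were covered by 80% or more by peaks identical in both lists that lay on the opposite strand. NDUFB7, a subunit of mitochondrial complex I, was covered to 85.2% by a control peak. SLITRK1 was covered to 85.6% by a control peak, opposite to the gene and with no knockdown partner.

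Sharing between the lists was counted as an overlap of 1 bp or more on the same strand with any peak of the other list. A partner was found for 60.4% (59.1 to 61.7) of knockdown peaks and 58.5% (57.2 to 59.8) of control peaks. Over all peaks of a list the shares were 55.6% in the knockdown list and 45.5% in the control list. With at least 50% of both peaks overlapping, the shares were 44.6% of knockdown peaks and 45.8% of control peaks, where all peaks gave 40.0% and 32.6%. Identical start, end and strand were found for 1103 peaks, 19.3% of the knockdown and 19.9% of the control peaks, where all peaks gave 20.0% and 16.3%. The knockdown list's 1 to 10 kb peaks thus had identical partners about as often as all its peaks did.

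The 2 lists gave close shares here, where they also held similar numbers of peaks, 5714 and 5534. Narrow peaks had a partner in 51.1% of knockdown and 42.9% of control cases, and peaks over 10 kb in 73.4% of knockdown and 37.5% of control cases. Along the width range, 58.2% of knockdown and 59.5% of control peaks had a partner at 1 to 2 kb, and 61.4% and 54.5% at 5 to 10 kb.

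Sharing went with score. At scores of 10 to 11 a partner was found for 43.4% (39.5 to 47.4) of knockdown and 38.4% (34.8 to 42.2) of control peaks, and at 50 or more for 83.1% (77.9 to 87.2) and 79.4% (73.0 to 84.7). Identical coordinates went from 8.15% to 68.1% in the knockdown list and from 9.08% to 70.6% in the control list between the same score ranges. In between the steps were uneven. Knockdown peaks had a control partner in 62.0% at scores of 12 to 15, 62.3% at 15 to 20 and 61.8% at 20 to 50, and control peaks had a knockdown partner in 59.2%, 64.9% and 64.9%.

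**Figure D4:**
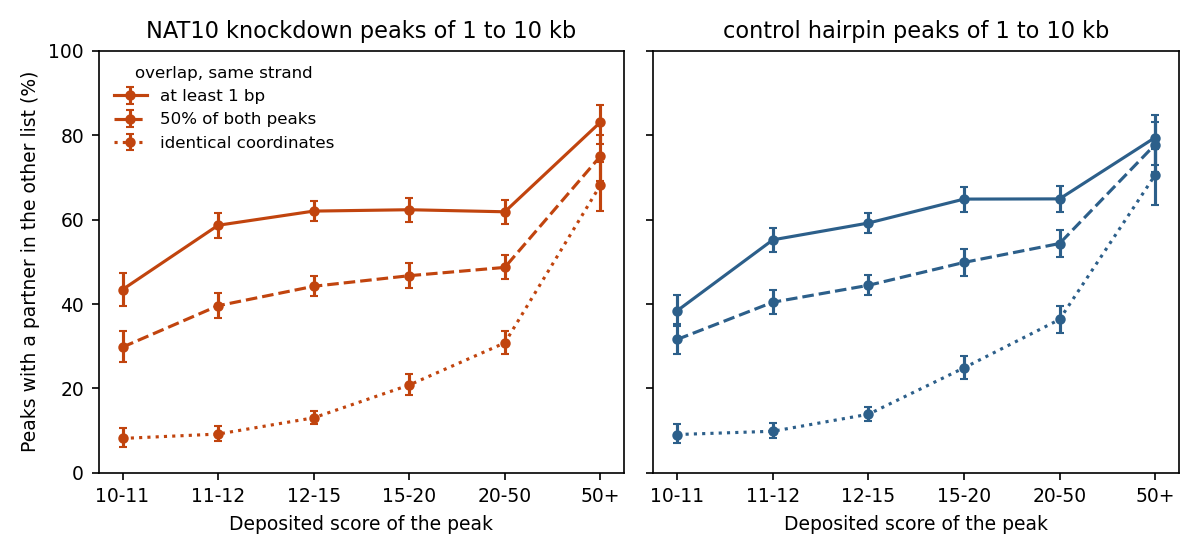
Share of peaks of 1 to 10 kb with a partner in the other list (%) by deposited score, knockdown peaks on the left and control peaks on the right, for different overlap rules, with 95% Wilson intervals as bars. Identical coordinates are found for 8.15% of knockdown and 9.08% of control peaks at scores of 10 to 11, and for 68.1% and 70.6% at 50 or more.

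Partners were mostly of the same class. Of the 3451 knockdown peaks with a partner, 77.7% overlapped a control peak that is itself of 1 to 10 kb, 26.2% a narrow one and 2.00% one over 10 kb. Of the 3238 control peaks with a partner, 82.6% overlapped such a knockdown peak, 19.8% a narrow one and 3.40% one over 10 kb. Up to 5 partners were found for 1 knockdown peak and up to 4 for 1 control peak.

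The edges of partners repeated exactly or moved in steps. There were 2715 overlapping pairs of a knockdown and a control peak, both of 1 to 10 kb. Both edges were the same in 1102 pairs, 40.6%, exactly 1 edge in 1048, 38.6%, and neither in 565, 20.8%. Where 1 edge was the same, the other was a whole multiple of 25 bp away in 731 pairs, 69.8% (66.9 to 72.5), and exactly 25 bp away in 288. The ACLY edges above are 1 case. The knockdown peak was the wider one in 559 of these 1048 pairs and the control peak in 489.

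Within a list these peaks rarely met another peak on their own strand, 33 knockdown and 45 control peaks. A peak on the opposite strand was met by 623 knockdown peaks, 10.9% (10.1 to 11.7), and 721 control peaks, 13.0% (12.2 to 13.9).

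Counted by gene, 2930 protein-coding genes held a peak of 1 to 10 kb in the knockdown list and 2902 in the control list. Both lists named 1771 of them, 60.4% of the knockdown genes and 61.0% of the control genes. Only the knockdown list named 1159, 39.6%, and only the control list 1131, 39.0%. Over peaks of any width and score, the control list missed 20.0% of the knockdown list's genes, and the knockdown list missed 28.9% of the control list's genes. A gene named by 1 list at 1 to 10 kb often had peaks of other kinds in the other, for 767 of the 1159 knockdown genes and 593 of the 1131 control genes. No peak at all in the other list was found for 392 knockdown and 538 control genes.

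Most genes held few. A single peak was held by 1949 knockdown and 1966 control genes, and 4 or more by 163 and 161. Of all 4061 genes, 1602 held more such peaks in the knockdown list, 986 equally many and 1473 more in the control list. An excess of 4 or more was found for 13 genes in the knockdown list and 31 in the control list.

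The gene with the most was HSPG2, which encodes perlecan, a large proteoglycan of the basement membrane. It held 14 such peaks in the knockdown list and 16 in the control list, and all of them overlapped a peak of the other list. The knockdown peaks lay between 44.3% and 91.2% of the gene span. Only the 3407 bp peak at chr1:21835533-21838939 was identical in both lists, with a score of 24.7 in the knockdown list and 12.3 in the control list. HUWE1, a ubiquitin ligase, held 8 in each list, with none identical. ITGB4, the laminin receptor subunit of hemidesmosomes, held 8 in the knockdown list and 7 in the control list, and ACTN1, an actin crosslinker, 7 in each.

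UBR4, a very large ubiquitin ligase, showed the largest excess in the knockdown list, 12 against 0. The gene was not empty in the control list, which held 12 peaks of other kinds there beside 33 knockdown peaks of all kinds. Of the 12 knockdown peaks, 3 overlapped one of those control peaks. They were 1010 to 4722 bp wide, the widest at chr1:19187527-19192248, and all lay on the gene's strand. DST, a giant cytolinker, held 10 in the knockdown list and 3 in the control list, and 8 of the 10 had a control partner. NUP98, of the nuclear pore, held 7 and 0, ACO1, an aconitase that also regulates iron, 5 and 0, and TPP2, a peptidase, 5 and 0. PTPRS, a receptor phosphatase, held 11 in the knockdown list and 7 in the control list.

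Of the 6 genes with the largest excess in the control list, 4 had no knockdown peak of any kind. ANK2, an ankyrin that anchors membrane proteins in neurons and heart muscle, held 0 in the knockdown list and 9 in the control list, of 0 and 25 peaks in all. These 9 were 1407 to 9303 bp wide and lay between 79.0% and 99.4% of the gene span. UNC80, a subunit of a sodium leak channel of neurons, held 0 and 7, of 0 and 16 peaks. ZEB2, a repressor that drives epithelial to mesenchymal change, held 0 and 6, of 0 and 10 peaks, and CADPS, which acts in vesicle release, 0 and 6, of 0 and 16. MYO5A, a myosin that carries vesicles, held 0 and 8, of 1 and 15 peaks, and PTPRD 1 and 7, of 4 and 29.

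**Figure D5:**
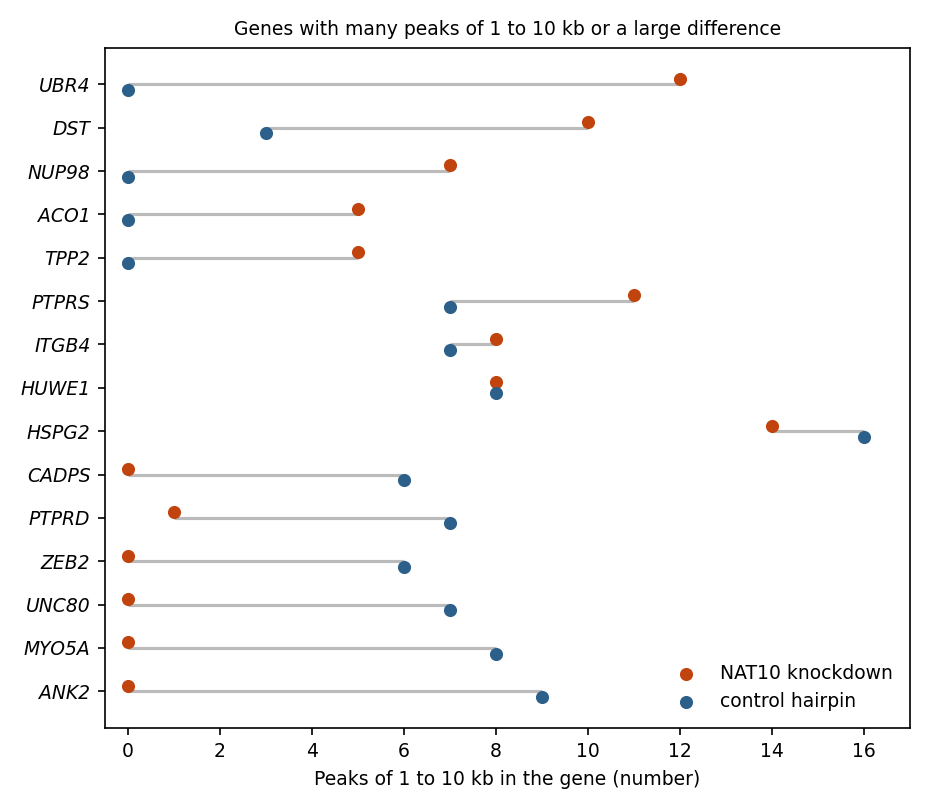
Number of peaks of 1 to 10 kb in 15 genes with many such peaks or a large excess in 1 list, with knockdown (orange) above control (blue) in each row. HSPG2 and HUWE1 have similar numbers in both lists, while UBR4 has 12 in the knockdown list and 0 in the control list and ANK2 0 and 9.

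ANK2 is also 1 of 16 neuron markers, of which 3 held a peak of 1 to 10 kb in the knockdown list and 11 in the control list, with 3 and 36 peaks between them. Any peak at all was found in 8 of the 16 in the knockdown list and 15 in the control list. Of the markers with any peak, 37.5% in the knockdown list and 73.3% in the control list thus held one of 1 to 10 kb, where all protein-coding genes with a peak gave 44.6% and 39.3%. SCN2A, a sodium channel, held 0 in the knockdown list and 5 in the control list, MAP2 and SNAP25 0 and 4 each. CAMK2A and TUBB3 held 1 in each list. These markers have a median span of 120740 bp. Astrocyte markers held 0 knockdown and 2 control peaks, both in SLC1A2, and oligodendrocyte markers 0 and 0. Without the genes of these 3 lists 1768 genes were named by both lists, 1159 by the knockdown list alone and 1122 by the control list alone.

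Of 12 biliary and epithelial markers, which fit the labelled cell type, 9 held a peak in each list. The same 5 held one of 1 to 10 kb, 7 peaks in the knockdown list and 7 in the control list, and the other 7 markers held none. These 5 are 55.6% of the markers with a peak in each list, beside the 44.6% and 39.3% of all genes. KRT7, a keratin of bile duct cells, held an identical 3883 bp peak that scored 16.3 in the knockdown list and 21.5 in the control list. MUC1, a membrane mucin, held an identical 3271 bp peak covering 46.1% of the gene. KRT8 and KRT19, also keratins, held 1 in each list. Of 8 hepatocyte markers, 2 had any knockdown peak and 3 any control peak, and each of these held 1 of 1 to 10 kb. Immune markers held 0 knockdown and 0 control peaks of this width, and fibroblast markers 0 and 1.

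NAT10, the gene targeted by the hairpin, held 1 such peak in the knockdown list and 2 in the control list, out of 5 peaks in each. The knockdown peak at chr11:34113740-34115823 overlapped the control peak at chr11:34113815-34118193 but not by 50% of both. The other control peak was at chr11:34127577-34131382. These are ac4C peaks in the gene, not its expression, so they do not check the knockdown. CHAF1A, the large subunit of the chromatin assembly factor CAF-1, held 0 in the knockdown list and 1 in the control list, of 4 and 11 peaks. These count peaks in CHAF1A alone, and with peaks that overlap another gene too it held 1 and 2. That control peak, at chr19:4432197-4433208, was 1012 bp wide and had a narrow knockdown partner that overlapped it by 50% of both, so it passed the width limit by 12 bp.

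Gene groups held these peaks to different extents, counted over their genes with any peak in that list. Of protein-coding genes with any knockdown peak 44.6% held one of 1 to 10 kb, and of those with any control peak 39.3% did. Among actin and adhesion genes it was 16 of 25 in the knockdown list and 14 of 25 in the control list, with 14 in both. MYH9, a nonmuscle myosin, held 6 knockdown and 7 control peaks, and VCL, which links adhesions to actin, 4 and 2. Glycolysis genes held them in 9 of 16 and 11 of 17, with PFKP, a phosphofructokinase, at 5 in each list and ENO1, an enolase, at 3 in each. Replication and cell cycle genes held them in 16 of 32 knockdown and 21 of 30 control genes. Of these genes 14 held them in both lists, 2 in the knockdown list only and 7 in the control list only. All protein-coding genes gave 1771, 1159 and 1131. The group's peaks numbered 37 in the knockdown list and 32 in the control list. MCM2 of the replicative helicase held 5 in the knockdown list and 3 in the control list, and POLD1, a DNA polymerase subunit, 4 and 2.

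Chromatin remodelling genes held such peaks in 18 of 33 in the knockdown list and 14 of 28 in the control list, among them SMARCA4, the ATPase of SWI/SNF complexes, with 5 in each and MTA1 of the NuRD complex with 4 in each. CAF-1 and histone chaperone genes held them in 9 of 17 and 6 of 19. Of the 12 with such a peak in either list 3 did in both, where all protein-coding genes gave 1771 of 4061. With peaks that overlap another gene too it was 5 of 12, where all protein-coding genes gave 2247 of 4912. Genes that silence transposable elements held them in 6 of 13 and 4 of 15, with EHMT1, a histone methyltransferase, at 4 in the knockdown list and 3 in the control list. Splicing factor genes held them in 17 of 30 and 13 of 31, and SF3A1, of the U2 particle, held 6 and 5. Translation factor genes held them in 18 of 36 and 14 of 34. Genes of RNA modification held them in 6 of 14 and 7 of 12, with 8 knockdown and 11 control peaks in all. YTHDC1, a nuclear reader of methylated adenosine, held 2 in the knockdown list and 3 in the control list.

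Among these groups the ribosomal protein genes had the lowest shares in both lists. Cytosolic ribosomal protein genes, with a median span of 4799 bp, held such a peak in 6 of the 60 genes with any knockdown peak and in 4 of the 53 with any control peak, out of 79 in the list. RPL19, RPL31, RPL32 and RPS6 held 1 in each list, and RPS18 and RPS24 1 in the knockdown list and 0 in the control list. Tubulin genes, with a median span of 4678.5 bp, held them in 4 of 9 and 4 of 10. These 4 were TUBA1B with a span of 3614 bp, TUBB3 with 14173 bp, TUBB6 with 22158 bp and TUBA1C with 46675 bp. The TUBA1B peak was identical in both lists and lay on the strand opposite to the gene. Heat shock and chaperone genes held them in 6 of 20 and 3 of 19, with CCT3, of the cytosolic chaperonin, at 4 in the knockdown list and 3 in the control list. No list was tested.

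Gene families were also counted by the start of the symbol alone, without regard to family size, so the counts show no preference for a family. Zinc finger genes beginning with ZNF held 45 in the knockdown list and 41 in the control list, over 37 and 32 genes. Genes beginning with COL, mostly collagens, held 44 and 34, over 14 genes in each list, and those beginning with USP, mostly ubiquitin proteases, 21 and 31 over 14 and 19 genes. Those beginning with ITG, mostly integrins, held 22 in each list over 7 genes in each. NPIP genes, which are near-identical copies on the genome, held 16 knockdown and 8 control peaks over 10 and 8 genes, and NOMO genes, also copies, 9 and 15 over 3 genes in each. Values of such copies are uncertain, since reads can be shared among them.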

How the data were processed

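The authors deposited 1 peak list for each arm, with a score for every peak. No source used here gives the scale of this deposited score, the peak caller, its threshold, or how inputs and replicates were used upstream. The submitters' processing notes name the build hg38 and the tools fastp (version 0.20.1) and Bowtie2 (version 2.4.1). Row numbers run to 28092 in the knockdown list and 34407 in the control list, and 45 and 42 of them have no row.

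Peaks were overlapped with bedtools 2.31.1 and assigned by 1 bp, on either strand, to gene spans of RefSeq GRCh38.p14. Strand and starts came from its promoter table, which covers 15843 of 20037 protein-coding genes. Exons were not used here. Python 3.11.15 ran the scripts with pandas 2.3.3, NumPy 2.4.6, SciPy 1.17.1 and matplotlib 3.10.9. Shares have 95% Wilson intervals and medians exact order-statistic intervals. Both cover counting error only and treat peaks as independent, which they are not. On simulated data, 3320 of 3320 control peaks shifted by 10 bp were found, as were 500 of 500 peaks placed in protein-coding genes. Both outcomes follow from how the peaks were placed, so they check only that the overlap step runs. Assignment to exactly 1 gene was not checked in this way. Alternatives changed the score limit, the width limits, the overlap rule, the strand rule and the gene assignment.

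Members and lists were chosen with earlier results of these data known. From peaks in exactly 1 gene that is protein-coding, the genes named are NAT10 and CHAF1A, the 8 genes per list with the highest finite score and the 8 with the most peaks, the 6 with the largest excess in either list, the 6 with the highest-scoring identical peaks, the 6 per list with the highest score among those covered by 80% or more, and up to 4 of highest score in each of 19 gene lists. The text gives examples of these, and a few genes are not reported here. TALDO1, PTP4A2, S100A10, ACLY, POLR2L, MAP2, SCN2A, KRT19, RPL32, RPS18, MYH9, VCL, PFKP, MCM2, POLD1, SMARCA4 and the families were chosen after their values were seen.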

Additional observations from a re-analysis of the deposited data

How the results depend on the processing

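Of 86 alternatives run, 57 stayed within their limits and 29 moved. With a score of 20 or more, 1417 knockdown and 1069 control peaks remained, 65.6% and 67.4% of them had a partner, 285 genes were named by both lists, 645 by the knockdown list alone and 392 by the control list alone. At that score the median cover was 4.40% in the knockdown list and 4.46% in the control list, neither boundary was held by 98.7% and 97.1%, the first 10% held 4.10% of knockdown peaks and the last 10% held 15.1% of control peaks. With widths over 2000 bp, 3663 knockdown and 3558 control peaks remained, both lists named 1143 genes, and the cover was 6.03% and 5.11%.

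The share with a partner was 56.8% of knockdown and 60.2% of control peaks when the control list was shortened by score to the knockdown list's length, so the order of the lists turned. It was 44.6% and 45.8% with an overlap of 50% of both peaks, 46.9% and 48.4% when the partner had to be of 1 to 10 kb, and 62.1% for knockdown peaks on either strand. Neither boundary was held by 100% and 99.98% of peaks wholly within the gene span, as that rule nearly requires. For peaks on the strand of the gene, an alternative chosen after seeing the data, it was 99.87% in the knockdown list and 99.86% in the control list. The cause of the other moves was not tested.

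No paired analysis was possible because each arm has 1 peak list without replicates. Without replicates, the depth of the libraries and the spread between cultures are unknown, and peaks in long genes are not independent.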
